A study of Mus musculus with 12 samples.

Results

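The response of mouse embryonic fibroblasts to interleukin-17 (IL-17) was measured by RNA-seq in cells that carried a control siRNA. The comparison set siControl + IL-17 (3 libraries) against siControl (3 libraries), chosen by treatment label. It contrasted 6 of the 12 libraries of the series. All cells were wild-type C57BL/6 fibroblasts from mid-gestation embryos (E12.5 to E13.5), grown in 6-well dishes. Medium was changed 24 hours after transfection in both groups, and the treated group then had 200 ng/mL of IL-17 for 8 hours. The other 6 libraries came from cells with an siRNA against IMP2, without or with the same IL-17 treatment. They entered the fits, where they share in the estimate of the spread, so the calls depend on them too. Their values are given only beside single results. Nothing in the labels says which cultures or embryos the libraries of a group came from, so the p-values rest on differences among libraries that may be technical repeats.

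IL-17 is a cytokine of T cells that acts mainly on stromal and epithelial cells. Its receptor, a pair of the chains IL-17RA and IL-17RC, recruits the adaptor Act1, which starts NF-kB and MAP kinase signalling and also lengthens the life of short-lived inflammatory mRNAs. In fibroblasts the pathway is known for chemokines that draw neutrophils and monocytes, for IL-6 and acute-phase genes, and for feedback through the IkB proteins and through the ribonuclease Regnase-1, which degrades inflammatory mRNAs.

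Libraries held 33841054 to 44433699 exon reads over 48709 genes. Titles begin with NA for replicates 1 and 2 of every group and with RB160 for replicate 3, and the labels do not say what these prefixes stand for. Over the 6 libraries compared, a principal component analysis put 78.1% of the variance on a component that separated the title sets and 8.11% on a second, on which all 3 IL-17 libraries lay on one side and all 3 siControl libraries on the other. The title set was therefore a term of every fit, and values within each set are printed as NA (2 libraries against 2) and RB160 (1 against 1). Fibroblast markers were abundant, with a summed level of 32700 to 34100 CPM, which are exon reads scaled to a common library size, in siControl and 27900 to 32400 in siControl + IL-17. Macrophage markers summed to 8.97 to 15 and 13.5 to 16.1 CPM, and 7 of the 15, Adgre1, Tyrobp and C1qb among them, had no read in any of the 6 libraries. The targeted gene of the other arm, Igf2bp2, did not pass the test for a change with IL-17 (168, 146 and 134 CPM in siControl, 166, 157 and 139 CPM with IL-17, edgeR adjusted p = 0.943).

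Genes were tested on exon reads with the quasi-likelihood test of edgeR, in a fit over all 12 libraries. P-values were adjusted by Benjamini-Hochberg across 13702 genes. A gene is said to have risen or fallen, or to be called, at an adjusted p below 0.05. Of these genes 58 (0.423%) changed, 35 higher (0.255%) and 23 lower (0.168%). Among those that rose 11 changed at least 2-fold, and their median log2 fold change was 0.65. Among those that fell 1 did so, Wnt4, and the median was -0.49. The genes with the largest rises were those of nitric oxide synthase 2, of the chemokines Cxcl5, Cxcl1 and Ccl2, of IL-6, of the nuclear co-activator IkB-zeta, of Regnase-1 and of the growth factor co-receptor Gfra2. All IL-17 libraries lay above all siControl libraries for 20 of the 35 genes that rose, as for 2.68% of all genes tested, and all lay below for 12 of the 23 that fell, as for 2.44%. Within both title sets the groups did not overlap for all 35 and all 23, against 10.6% and 11.3% of all genes. The same libraries gave the calls, so these counts describe the called genes and do not support them. Without the title set as a term 1 gene was called, Cxcl1. At an unadjusted p below 0.05 in edgeR, 646 of the 13702 genes were higher and 857 lower. The list counts at an unadjusted p given below are to be read beside these.

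**Figure D1:**
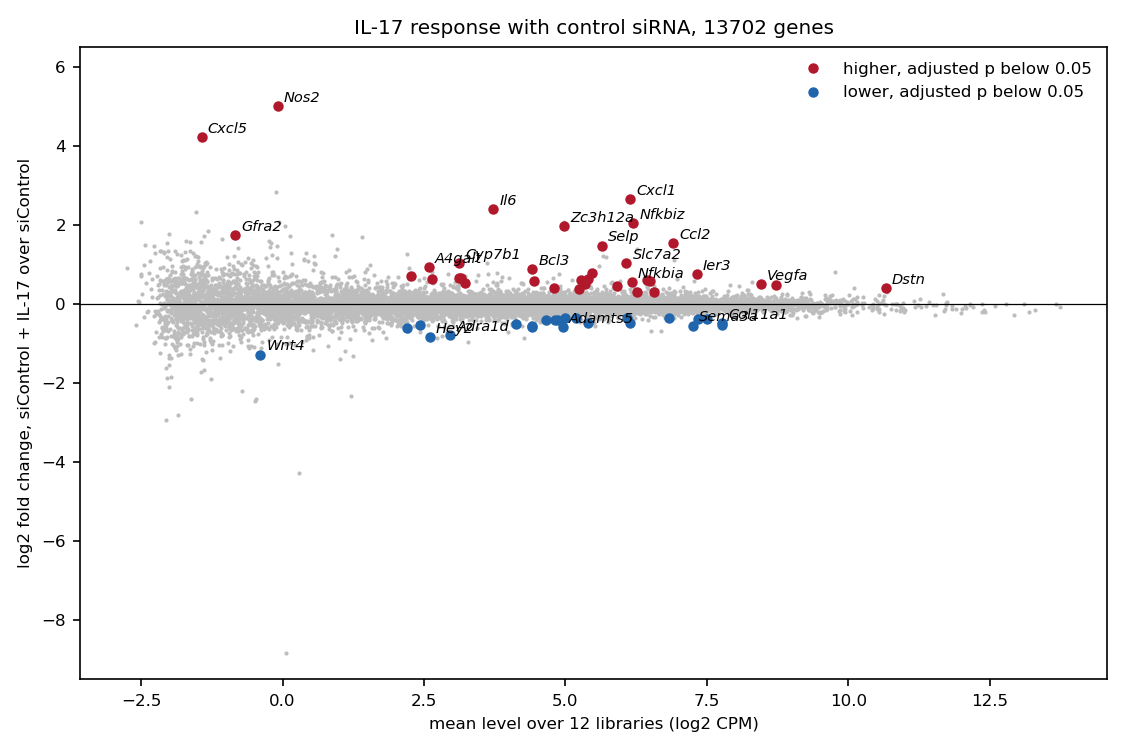
Log2 fold change of siControl + IL-17 over siControl against the mean level over 12 libraries (log2 CPM), 1 point per gene tested. The 35 genes that rose are red and the 23 that fell are blue; Nos2 and Cxcl5 stand highest, at 5.01 and 4.21, at low mean levels, and the genes that fell lie close below 0 except Wnt4 at -1.29.

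Promoters were examined because NF-kB is the best known transcription factor downstream of the receptor. RefSeq promoters of GRCm38.p6, the assembly also called mm10, run from 250 bases before the start site to 50 after it, and were found for 21 of the 35 genes that rose and 15 of the 23 that fell. None was found for Nos2, Cxcl5, Nfkbiz, Ccl2 and Gfra2, so the shares leave out several of the largest rises. Matches of the NF-kB consensus, on either strand, lay in 6 of the 23 promoters of genes that rose (26.1%) and in 0 of the 27 of genes that fell, while 4.51% of all 32841 promoters and 5.38% of the 13010 of genes tested hold one. Counted by gene, these were 6 of 21 (28.6%) and 0 of 15. The shares by gene were 5.14% over all promoters and 6.47% over genes tested. The 4 promoters shown here were picked among the genes that rose whose match lies before the start site, leaving out Vegfa. They belong to a chemokine, a cytokine, an IkB and a feedback regulator gene. They are read 5′ to 3′ on the strand of the gene and end at the base before the RefSeq start site, with matches in capitals. The Cxcl1 sequence is at chr5:90890995-90891244 (plus strand), that of Il6 at chr5:30012864-30013113 (plus strand), that of Nfkbia at chr12:55492648-55492897 (minus strand) and that of Ier3 at chr17:35821463-35821712 (plus strand).
Cxcl1: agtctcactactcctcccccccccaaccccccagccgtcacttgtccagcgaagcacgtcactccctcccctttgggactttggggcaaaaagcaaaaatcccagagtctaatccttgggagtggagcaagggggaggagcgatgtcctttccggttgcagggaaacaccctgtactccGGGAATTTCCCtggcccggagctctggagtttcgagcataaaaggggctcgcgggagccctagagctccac
Il6: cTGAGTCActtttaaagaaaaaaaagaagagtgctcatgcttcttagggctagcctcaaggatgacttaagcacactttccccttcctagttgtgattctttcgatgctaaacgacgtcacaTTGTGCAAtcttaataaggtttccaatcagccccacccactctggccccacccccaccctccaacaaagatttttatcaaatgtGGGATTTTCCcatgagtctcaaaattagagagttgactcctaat
Nfkbia: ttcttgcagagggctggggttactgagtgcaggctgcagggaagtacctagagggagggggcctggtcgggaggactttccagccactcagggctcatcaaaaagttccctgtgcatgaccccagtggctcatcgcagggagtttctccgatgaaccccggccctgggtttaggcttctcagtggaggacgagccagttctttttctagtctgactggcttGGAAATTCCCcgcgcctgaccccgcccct
Ier3: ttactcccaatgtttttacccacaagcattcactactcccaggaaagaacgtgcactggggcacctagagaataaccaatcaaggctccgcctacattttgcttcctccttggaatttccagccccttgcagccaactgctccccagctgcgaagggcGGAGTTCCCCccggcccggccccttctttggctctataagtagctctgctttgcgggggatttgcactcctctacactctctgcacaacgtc

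In Cxcl1 the capitals are 2 overlapping NF-kB matches, 1 per strand, that begin 71 and 70 bases before the start site. In Il6 they are, from the left, an AP-1 match (TGANTCA), a C/EBP match (TTGCNNAA, on the other strand) and the NF-kB match, which begins 44 bases before the start. The NF-kB matches of Nfkbia and Ier3 lie on the other strand, 29 and 92 bases before the start. The remaining matches were in Vegfa, 118 bases before the start, and in Bcl3, from base 3 after it. AP-1 matches lay in 4 of the 23 promoters of genes that rose (17.4%, against 7.81% of all promoters and 5.44% of those of genes tested) and C/EBP matches in 3 (13.0%, against 10.8% and 8.26%). In promoters of genes that fell, 2 of 27 held an AP-1 match (7.41%) and 0 a C/EBP match. Both AP-1 matches were the same bases, counted in 2 overlapping promoters of Prss23, so by gene it was 1 of 15 (6.67%). Prss23 has 7 of the 27 promoters and Pde8b 5. A match describes these letters only, and binding was not measured.

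Of 14 genes in the CXC chemokine list, which also holds the CX3C chemokine gene Cx3cl1, 7 were abundant enough to be tested. Of these 2 rose and 0 fell. Cxcl1 encodes a ligand of the neutrophil receptor CXCR2 (ENSMUSG00000029380, mm10 chromosome 5, 90891241 to 90893115, plus strand). It stood at 39.4, 34.1 and 23.5 CPM in siControl replicates 1, 2 and 3 and at 201, 189 and 220 CPM with IL-17. The lowest IL-17 library was far above the highest siControl library, and the RB160 control library was the lowest of the 6. The rise was 6.28-fold, a log2 fold change of 2.65 ± 0.20 (SE, n = 3 per group; edgeR adjusted p = 6.17e-05). Cxcl5, another CXCR2 ligand (ENSMUSG00000029371, mm10 chromosome 5, 90759360 to 90761624, plus strand), went from 3, 3 and 0 reads to 38, 31 and 63 reads, or 0.0819, 0.0896 and 0 and 1.01, 0.905 and 1.24 CPM. Its log2 fold change was 4.21 ± 0.62 (edgeR adjusted p = 0.0205), and in RB160, with 0 reads before IL-17, the level was at least 17.4-fold higher, taking 3 reads per library as the floor. Cxcl16, Cx3cl1, Cxcl12, Cxcl10 and Cxcl14 did not pass; Cxcl16, a membrane-bound chemokine, had a log2 fold change of 0.74 ± 0.23 (adjusted p = 0.235, edgeR). Cxcl2, a close relative of Cxcl1, was too rare to be tested, with 8, 2 and 1 reads in siControl and 21, 15 and 6 with IL-17.

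Among the 9 tested of 17 listed CC chemokine genes 1 rose and 0 fell. Ccl2, which draws monocytes through CCR2 (ENSMUSG00000035385, mm10 chromosome 11, 82035571 to 82037453, plus strand), stood at 119, 112 and 53.3 CPM in siControl and at 325, 314 and 184 CPM with IL-17. The groups did not overlap, and the RB160 library was the lowest in each. The log2 fold change was 1.54 ± 0.30, or 2.91-fold (edgeR adjusted p = 0.0466). Its neighbour in function Ccl7 went from 78.4, 79.8 and 36.3 to 189, 206 and 111 CPM, also without overlap, and missed the threshold in edgeR at a log2 fold change of 1.39 ± 0.28 (adjusted p = 0.0559), while DESeq2 and limma-voom both called it (adjusted p = 0.0164 and 0.0361). Ccl20, the ligand of CCR6, had 0.792, 0.269 and 0 CPM before and 1.46, 1.31 and 0.197 CPM after IL-17, with overlapping groups (log2 fold change 1.54 ± 0.50, edgeR adjusted p = 0.258). Per length, Cxcl1 and Ccl2 ended at similar levels, 624.7 ± 144 and 681 ± 111 TPM (transcript levels scaled for length; mean ± SD, n = 3), from 95.7 ± 14.8 and 232.5 ± 68.8 TPM in siControl. Cxcl5 ended at 1.67 ± 0.53 TPM.

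Among the 25 tested of 31 listed cytokine and growth factor genes 2 rose, Il6 and Vegfa, and 0 fell, with a median log2 fold change of 0.22 against -0.006 over all genes. Il6 (ENSMUSG00000025746, mm10 chromosome 5, 30013114 to 30019981, plus strand) stood at 12.45, 7.71 and 1.90 CPM in siControl and 40.6, 34.9 and 31.8 CPM with IL-17. The 3 IL-17 libraries were close together, while the siControl libraries were spread and the RB160 one was the lowest, so the log2 difference was 1.94 in NA and 4.03 in RB160. The log2 fold change was 2.41 ± 0.38 (edgeR adjusted p = 0.019). Vegfa, the vascular growth factor gene, went from 326, 286 and 126 to 421, 393 and 202 CPM, higher within each set but overlapping across sets (log2 fold change 0.50 ± 0.10, edgeR adjusted p = 0.0466). Lif, of the IL-6 family, had 133, 122 and 28.8 and 265, 240 and 85.5 CPM, a log2 fold change of 1.12 ± 0.26 that did not pass (edgeR adjusted p = 0.112). The colony-stimulating factor gene Csf3 stayed below 1 CPM in all 6 libraries (log2 fold change 1.09 ± 0.42, edgeR adjusted p = 0.358), and Csf2 was not tested, with 3, 1 and 0 reads before and 12, 8 and 1 after.

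**Figure D2:**
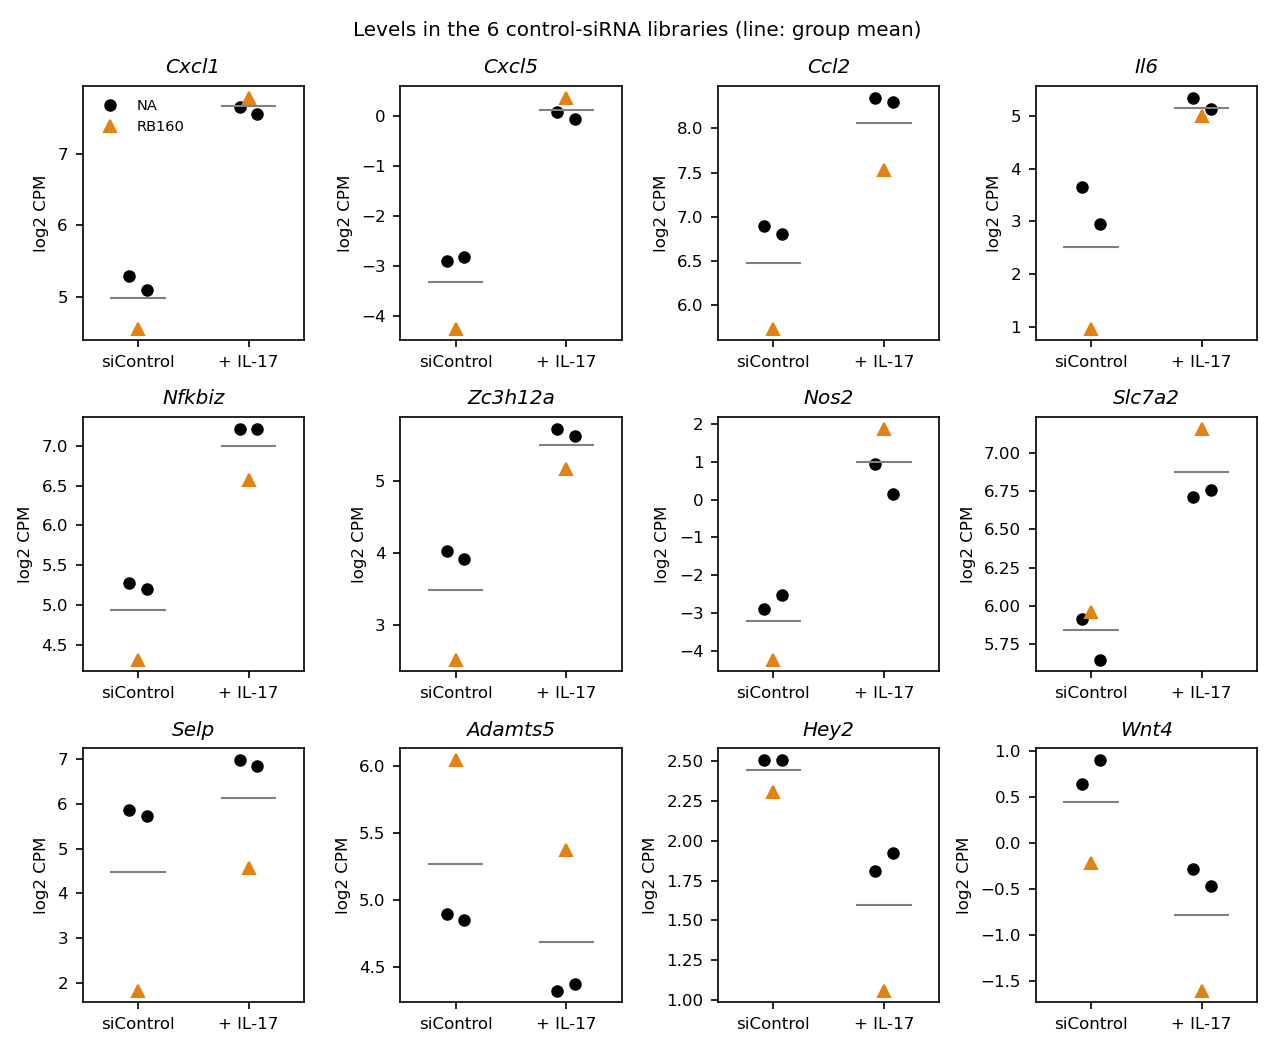
Levels of 12 genes in the 6 libraries (log2 CPM, prior count 2; a point per library, round for NA and triangular for RB160, with a line at each group mean; each panel has its own axis). Groups are apart for 10 genes, while Selp and Adamts5 overlap across the title sets and are apart within each.

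Of the 11 NF-kB subunit and IkB genes 3 rose and 0 fell. Nfkbiz encodes IkB-zeta, a nuclear IkB protein that works as a co-activator of NF-kB targets (ENSMUSG00000035356, mm10 chromosome 16, 55811375 to 55838899, minus strand). Its level was 38.9, 36.9 and 19.9 CPM in siControl and 149, 148 and 94.8 CPM with IL-17. The groups were far apart, and the RB160 library was again the lowest in each. At a log2 fold change of 2.05 ± 0.12 it had the smallest p of all genes (edgeR adjusted p = 4.35e-06). Nfkbia, the gene of the inhibitor IkB-alpha that retains NF-kB in the cytoplasm, had 71.1, 73.2 and 44.1 CPM before and 110, 107 and 61.2 CPM after. The RB160 library with IL-17 lay below both NA control libraries, yet the log2 difference was alike in both sets, 0.58 and 0.47 (log2 fold change 0.55 ± 0.053, edgeR adjusted p = 0.000703). Bcl3, the gene of another nuclear IkB protein, rose from 24.2, 26.3 and 14.5 to 38.9, 39.4 and 37.7 CPM, with similar final levels in all 3 libraries (log2 fold change 0.87 ± 0.14, edgeR adjusted p = 0.0238). The subunit genes Nfkb1, Nfkb2, Rel, Rela and Relb did not pass in edgeR, nor did Nfkbib, Nfkbid and Nfkbie; DESeq2 called Nfkb1 higher.

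Of 24 genes of RNA-binding regulators of inflammatory mRNA, Zc3h12a alone passed. It encodes Regnase-1 (ENSMUSG00000042677, mm10 chromosome 4, 125118423 to 125127840, minus strand) and rose from 16.4, 15.1 and 5.69 to 53.0, 49.2 and 35.9 CPM, with no overlap (log2 fold change 1.97 ± 0.20, edgeR adjusted p = 0.000737). Of 27 feedback regulator genes Ier3, an early response gene of NF-kB, rose and 0 fell by edgeR; DESeq2 also called Dusp14 lower. Ier3 had 155, 163 and 50.3 CPM in siControl and 233, 239 and 110 CPM with IL-17, the RB160 library being lowest in each group (log2 fold change 0.74 ± 0.10, edgeR adjusted p = 0.011). Tnfaip3, the gene of the deubiquitinating enzyme A20, moved little, from 62.5, 61.1 and 21.1 to 75.3, 66.2 and 23.3 CPM (log2 fold change 0.18 ± 0.10, edgeR adjusted p = 0.533). Socs3, which restrains IL-6 signalling, had 0.36 ± 0.10 (edgeR adjusted p = 0.174).

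The receptor and its signalling chain gave no call. Of 27 tested genes of IL-17 receptor signalling 0 passed in either direction by edgeR, with 2 higher and 4 lower at an unadjusted p below 0.05 and 0 called by DESeq2 or limma-voom. Il17ra stood at 30.3, 29.7 and 27.5 CPM before and 31.7, 28.1 and 29.2 CPM after IL-17, and Il17rc at 27.4, 27.6 and 33.8 and 24.9, 22.3 and 27.2 CPM. The Il17rc libraries did not overlap, at a log2 fold change of -0.26 ± 0.088 that missed the threshold (edgeR adjusted p = 0.289). Traf3ip2, the Act1 gene, had 0.20 ± 0.081 (edgeR adjusted p = 0.373), Ikbke, a kinase gene of the pathway, 0.24 ± 0.092, and Syk -0.30 ± 0.10. The median log2 fold change of the 27 genes was 0.018.

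Of 6 tested C/EBP family genes 0 were called by edgeR, with 2 higher and 0 lower at an unadjusted p below 0.05. These were Cebpd and Cebpb, transcription factor genes of acute-phase regulation; DESeq2 called both and limma-voom called Cebpd. Cebpd went from 72.3, 54.0 and 19.4 to 129, 126 and 62.9 CPM, higher in each set with overlap across sets (log2 fold change 1.18 ± 0.24, edgeR adjusted p = 0.0665). Cebpb went from 27.6, 25.8 and 18.1 to 32.5, 34.2 and 35.04 CPM with no overlap (log2 fold change 0.54 ± 0.12, edgeR adjusted p = 0.102). The 17 tested of 28 listed acute-phase and antimicrobial genes had the highest median of all lists, 0.58, but 0 passed by edgeR. At an unadjusted p below 0.05 11 were higher and 0 lower, and DESeq2 and limma-voom each called Ptx3, the gene of the secreted pattern recognition protein pentraxin-3. Ptx3 stood at 11.1, 9.89 and 42.4 CPM in siControl and 13.99, 14.2 and 88.7 CPM with IL-17, several-fold higher in RB160 than in NA in each group (log2 fold change 0.67 ± 0.14, edgeR adjusted p = 0.0796). The list's median was 0.17 in NA and 1.15 in RB160, and several of its members are taken up below with the title sets.

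Genes of arginine and nitric oxide metabolism had 2 of 15 tested higher and 0 lower. Nos2 encodes inducible nitric oxide synthase (ENSMUSG00000020826, mm10 chromosome 11, 78920787 to 78960254, plus strand) and went from 3, 4 and 0 reads to 70, 36 and 185 reads, or 0.0819, 0.120 and 0 and 1.86, 1.05 and 3.64 CPM. Its log2 fold change of 5.01 ± 0.58 rests on 7 reads in siControl (edgeR adjusted p = 0.00742), and in RB160 the level was at least 51.0-fold higher over that floor. Slc7a2, the gene of a cationic amino acid transporter that carries arginine, rose from 60.1, 50.02 and 62.3 to 105, 108 and 143 CPM with no overlap (log2 fold change 1.02 ± 0.13, edgeR adjusted p = 0.00614). Per length, Slc7a2 reached 38.4 ± 13.1 TPM and Nos2 1.52 ± 1.15 TPM. Arg2, a mitochondrial arginase gene, was not tested, with 7, 4 and 3 reads before IL-17 and 11, 12 and 11 after.

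Other solute carriers and metabolic enzymes rose too. Slc7a11, of the cystine-glutamate exchanger, went from 52.1, 37.6 and 18.6 to 77.3, 65.8 and 38.9 CPM (log2 fold change 0.79 ± 0.14, edgeR adjusted p = 0.046), and Gclm, the modifier subunit of the enzyme that starts glutathione synthesis, had 0.30 ± 0.053. Both overlapped across sets and were higher within each. Slc11a2, a divalent metal transporter gene, rose by 0.57 ± 0.11, and the metallothionein gene Mt1 from 40.2, 41.6 and 35.2 to 56.9, 58.4 and 61.2 CPM with no overlap (log2 fold change 0.59 ± 0.10, edgeR adjusted p = 0.0245). Slc16a9 and Slc12a2, a monocarboxylate carrier family gene and the gene of a sodium-potassium-chloride cotransporter, rose by 0.69 and 0.51. Of 12 sterol and glycolipid enzyme genes 2 rose and 0 fell. Cyp7b1, an oxysterol hydroxylase gene, went from 6.55, 5.97 and 11.1 to 12.48, 12.2 and 24.3 CPM and A4galt, the gene of the enzyme that makes globotriaosylceramide, from 5.52, 4.87 and 7.40 to 9.53, 9.49 and 14.8 CPM. Neither overlapped (log2 fold changes 1.04 ± 0.14 and 0.92 ± 0.13, edgeR adjusted p = 0.00742 and 0.00968). Sqrdl, a mitochondrial sulfide oxidation gene, rose by 0.39 ± 0.062.

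Several genes of surface receptors and signalling were among those that rose. Selp, the adhesion molecule P-selectin, stood at 58.5, 52.7 and 3.50 CPM in siControl and 127, 115 and 23.6 CPM with IL-17, and the RB160 libraries were far below the NA ones in each group (log2 fold change 1.47 ± 0.28, edgeR adjusted p = 0.0466). Gfra2, a co-receptor gene of the GDNF family, rose from 0.273, 0.239 and 0.214 to 0.664, 0.759 and 1.02 CPM with no overlap at a level of 8 to 52 reads per library (log2 fold change 1.75 ± 0.28, edgeR adjusted p = 0.0205). Tgfbr3, the betaglycan gene, went from 24.8, 24.9 and 75.6 to 35.3, 37.5 and 127 CPM, here with RB160 as the highest library of each group (0.62 ± 0.10). Lrig1, a negative regulator of growth factor receptors, and Ptch1, the hedgehog receptor gene, rose by 0.60 ± 0.086 and 0.45 ± 0.080. Cd47, which signals to phagocytes, and the G protein subunit gene Gng2 rose by 0.30 and 0.65. The others were Syt17 (0.65), Cfap69 (0.63), Fgfr1op (0.59), the tendon transcription factor gene Mkx (0.53), Itpripl2 (0.47), the actin-severing factor gene Dstn (0.39) and Lhfpl2 (0.38), all on the log2 scale. With these, all 35 genes that rose are named.

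Genes of developmental signalling and of the matrix were among the 23 that fell. Of 46 tested among 52 listed NOTCH, hedgehog, WNT and semaphorin genes 3 fell and 1 rose (Ptch1) by edgeR, with a median log2 fold change of -0.23 and 1 higher and 18 lower at an unadjusted p below 0.05. DESeq2 called 9 lower, the same 3 with Axin2, Dkk3, Fzd2, Hes1, Nrp1 and Sema3f, and Ptch1 higher. Wnt4, a WNT ligand gene, had 55, 61 and 34 reads in siControl and 29, 23 and 14 with IL-17, or 1.502, 1.82 and 0.809 and 0.770, 0.671 and 0.275 CPM. It fell 2.44-fold with no overlap (log2 fold change -1.29 ± 0.25, edgeR adjusted p = 0.0466). Hey2, a transcription factor gene downstream of NOTCH, fell from 5.65, 5.65 and 4.90 to 3.45, 3.74 and 2.03 CPM with no overlap (log2 fold change -0.85 ± 0.14, edgeR adjusted p = 0.0231). Sema3a, a secreted guidance cue, fell from 149, 155 and 192 to 107, 118 and 111 CPM (log2 fold change -0.55 ± 0.089, edgeR adjusted p = 0.0212). Fzd6, a WNT receptor gene outside that list, fell by 0.49 ± 0.088 on the log2 scale.

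Of 26 matrix protease and inhibitor genes 1 fell, Adamts5, which encodes an aggrecan-degrading protease, and 0 rose. Its levels were 29.8, 28.9 and 66.2 CPM in siControl and 19.97, 20.7 and 41.4 CPM with IL-17. The RB160 libraries were higher than NA in each group, so that the groups overlapped, and the log2 difference was -0.53 in NA and -0.68 in RB160. With a log2 fold change of -0.58 ± 0.064 it had the smallest p among the genes that fell (edgeR adjusted p = 0.00152). Mmp3 and Mmp13, genes of secreted matrix metalloproteases, stayed below 10 CPM with log2 fold changes of 0.51 ± 0.52 and 0.52 ± 0.30 (edgeR adjusted p = 0.775 and 0.573). Of 30 collagen chain genes 1 fell, Col11a1, from 194, 176 and 376 to 144, 139 and 239 CPM, and 0 rose by edgeR (log2 fold change -0.48 ± 0.068, edgeR adjusted p = 0.011). DESeq2 also called Col23a1 and Col5a3 higher, and at an unadjusted p below 0.05 2 were higher and 9 lower. The median of the list was -0.16. Nid2, the gene of a basement membrane protein, fell by 0.38, the secreted protease gene Prss23 by 0.54, and Olfml2b and Igsf10 by 0.36 and 0.53 on the log2 scale.

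Other genes that fell were Adra1d, an alpha-adrenergic receptor gene (9.01, 9.86 and 10.99 CPM before and 5.60, 5.96 and 5.74 CPM after, log2 fold change -0.79 ± 0.15, edgeR adjusted p = 0.0466), and Tmem119 (30.5, 31.1 and 41.3 and 23.4, 20.3 and 25.6 CPM, -0.56 ± 0.077, edgeR adjusted p = 0.00968). Neither overlapped. Transcriptional regulators that fell were Mecom (-0.41), Zfhx4 (-0.40), Eya4 (-0.37) and Id2 (-0.35). The remaining genes were Tnrc18 (-0.38), Enpp5 (-0.62), Ctnnd2 (-0.59), Prx (-0.51), Klhdc8a (-0.48), the phosphodiesterase gene Pde8b (-0.40) and the focal adhesion gene Sorbs3 (-0.35), as log2 fold changes. With these, all 23 genes that fell are named.

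In the remaining lists 1 gene was called. Of 18 contractile and myofibroblast genes 0 were called by edgeR, with 0 higher and 8 lower at an unadjusted p below 0.05; DESeq2 called 3 lower, Cnn1, Itga8 and Myl9, and limma-voom 0. Only Itga5 of the 18 had a log2 fold change above 0, and the median was -0.23, -0.11 in NA and -0.42 in RB160. The smooth muscle myosin light chain gene Myl9 went from 501, 508 and 304 to 466, 413 and 213 CPM (log2 fold change -0.31 ± 0.081, edgeR adjusted p = 0.153). Ptgs2, the inducible cyclooxygenase gene, had the smallest p of 10 prostaglandin genes, 849, 632 and 181 and 1238, 1062 and 443 CPM, and did not pass (0.81 ± 0.23, edgeR adjusted p = 0.194); 0 of the 10 were called by edgeR, DESeq2 or limma-voom, and 5 were higher and 0 lower at an unadjusted p below 0.05. Hk2, a hexokinase gene, led 29 glycolysis and hypoxia-response genes at 0.55 ± 0.13 (edgeR adjusted p = 0.102), and 0 of the 29 passed by edgeR, against 9 higher at an unadjusted p below 0.05 and 1 by DESeq2. Of 24 unfolded protein and ATF4 stress genes Slc7a11 rose. In 26 interferon-stimulated, 24 cholesterol synthesis, 30 replication and mitosis, 19 AP-1 and EGR and 13 mitochondrially encoded genes 0 were called by edgeR, with 0, 0, 1, 3 and 0 higher and 5, 5, 0, 0 and 0 lower at an unadjusted p below 0.05; DESeq2 called 1 of them, the AP-1 list member Ier5, and limma-voom 0. No gene of the 9 cell type marker lists was called by edgeR, with 3 higher and 13 lower at an unadjusted p below 0.05; limma-voom called 0 and DESeq2 called Pdgfrb, Vim and Dlk1 lower. Summed levels were 8.60 to 15.3 CPM in siControl and 8.66 to 12.1 with IL-17 for endothelial, 41.7 to 126 and 38.0 to 113 for epithelial, 343 to 989 and 320 to 996 for neural, 56.1 to 72.6 and 50.8 to 52.4 for adipocyte and 228 to 641 and 210 to 722 for chondrocyte and osteoblast markers. Erythroid and skeletal muscle markers stayed below 2 CPM in sum. The sums of fibroblast, adipocyte and skeletal muscle markers were lower with IL-17 without overlap (0.71, 0.926 and 0.856 against 0.69, 0.496 and 0.688 CPM for skeletal muscle), and their part in the genes that fell was not tested. The 14 fibroblast markers did not all move alike, and 4 had a log2 fold change above 0. At an unadjusted p below 0.05 in edgeR 5 were lower and 2 higher. The 2 were Dcn and Lum (log2 fold changes 0.76 and 1.10, edgeR adjusted p = 0.134 and 0.227). In bulk RNA fewer cells of a type and less RNA per cell cannot be told apart.

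**Figure D3:**
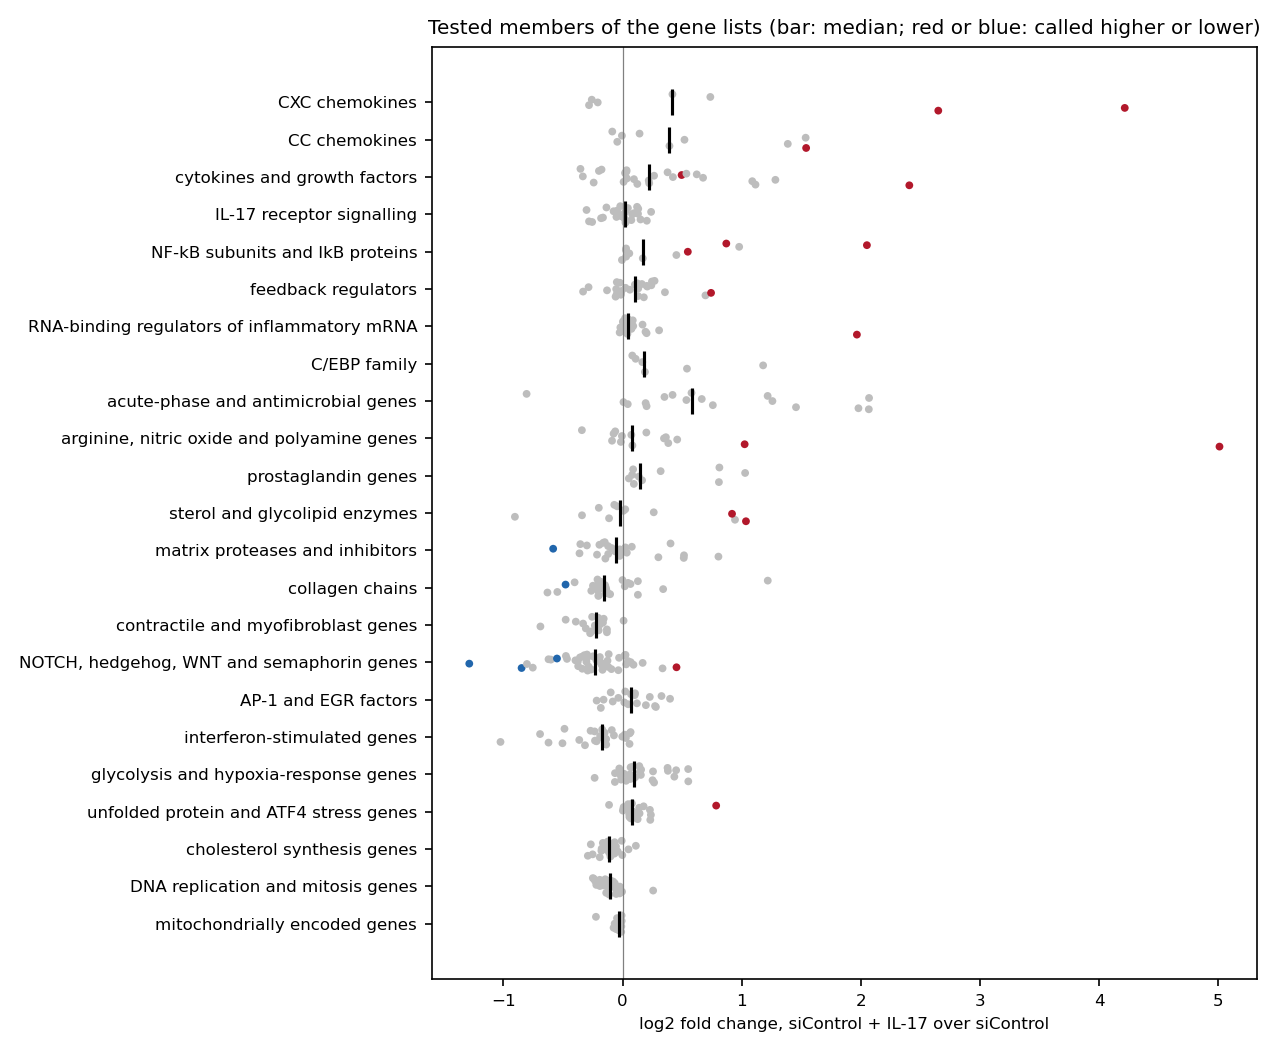
Log2 fold change of each tested member of 23 gene lists, 1 point per gene, with a bar at the list's median; red and blue points were called higher and lower. The chemokine and acute-phase lists have the highest medians (0.42, 0.39 and 0.58), and the called genes stand apart from most of their own list.

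The size of the response was also set side by side in the title sets. Of the 35 genes that rose 31 had the larger difference in RB160 (88.6%), as did 22 of the 23 that fell (95.7%), while the share over all genes was 70.9%. The RB160 difference has 1 library on each side. A model with a mean for each group in each set gave the difference of the 2 responses, RB160 minus NA: 9 genes passed with the larger rise in RB160 (0.0657% of 13702) and 0 with the smaller (0%). At an unadjusted p below 0.05 366 and 442 genes did so, and DESeq2 called 16 and 2. In this model only the NA libraries have a replicate, so the RB160 libraries, 1 per group, are assumed to vary like these. Fitted on the 6 libraries of the comparison alone, 7 genes passed, 4 of them among the 9 (Lcn2, Selp, Saa3 and Serpina3n).

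Of the 9 genes, 5 are members of the acute-phase list. Lcn2, the gene of the siderophore-binding protein lipocalin-2, stood at 42.8, 33.4 and 0.143 CPM in siControl and 121, 89.0 and 36.8 CPM with IL-17. The RB160 control library had 6 reads and the NA ones 1568 and 1119, and with IL-17 all 3 libraries were abundant. It was not called in the fit over both sets (edgeR adjusted p = 0.233), and its responses in the sets differed by 6.52 ± 0.59 on the log2 scale (edgeR adjusted p = 0.00258). Saa3, a serum amyloid gene, had 32, 26 and 0 reads before and 71, 54 and 136 after, at least 37.5-fold higher in RB160 over the same floor and 1.02 in NA on the log2 scale (edgeR adjusted p = 0.0107 for the difference). For Serpina3n, a serine protease inhibitor gene, the levels were 3.06, 1.82 and 3.62 and 2.63, 1.87 and 33.0 CPM, a log2 difference of -0.089 in NA and 3.17 in RB160 (edgeR adjusted p = 0.0107). C3, the complement component gene, went from 29.9, 25.5 and 36.4 to 38.2, 32.5 and 105 CPM, 0.35 in NA and 1.53 in RB160 (edgeR adjusted p = 0.0327), and the zinc and iron transporter gene Slc39a14 from 95.0, 88.9 and 80.6 to 99.2, 89.5 and 155 CPM, 0.036 and 0.94 (edgeR adjusted p = 0.0192). Serpina3n and Saa3 belong to families of similar genes, among which the counting may have split reads. Steap4, a metalloreductase gene of the same list, had 0.382, 0.239 and 0.404 and 0.319, 0.321 and 6.39 CPM and did not pass (edgeR adjusted p = 0.0679).

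The other 4 genes were Selp, Has2, Ctps and Thbd. Selp alone of the 9 was also called in the fit over both sets, with differences of 1.12 in NA and 2.74 in RB160 (edgeR adjusted p = 0.00317). Has2, a hyaluronan synthase gene, had 298, 280 and 33.5 CPM before and 238, 263 and 57.2 CPM after, lower in NA (-0.20) and higher in RB160 (0.77; edgeR adjusted p = 0.0263). Ctps, the CTP synthase gene, went from 142, 141 and 105 to 146, 151 and 183 CPM, and thrombomodulin, Thbd, from 247, 240 and 61.0 to 279, 277 and 116 CPM, with differences of 0.069 and 0.19 in NA and 0.80 and 0.93 in RB160 (edgeR adjusted p = 0.0263 and 0.0302). Leaving out siControl_IL17 replicate 2 left 2 of the 9 calls and leaving out siIMP2_IL17 replicate 1 or 2 left 4, while leaving out either RB160 library of this comparison gives no value. The share of mitochondrial reads was 3.85% and 3.35% in the RB160 libraries and 6.06% to 6.90% in the NA ones; its part in the differences was not tested.

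**Figure D4:**
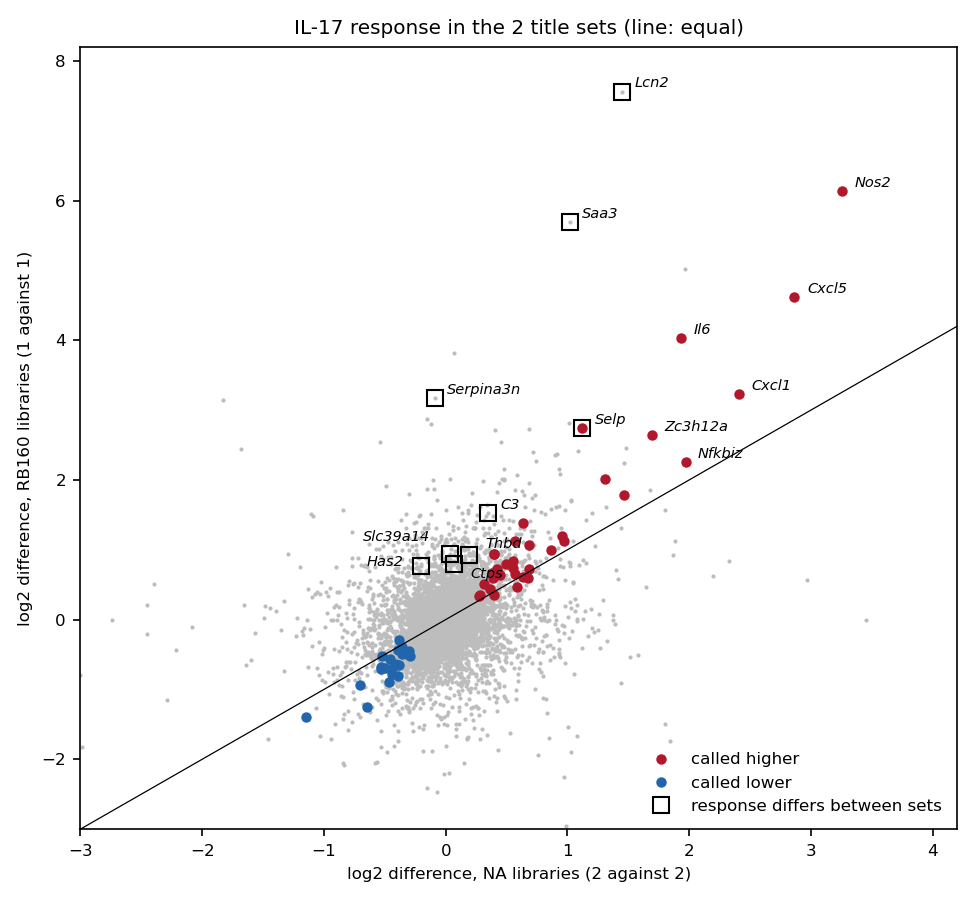
Log2 difference between siControl + IL-17 and siControl in RB160 (1 library against 1) against that in NA (2 against 2), 1 point per gene; 9 genes lie outside the axes. The 35 genes that rose and the 23 that fell are coloured, and squares mark the 9 genes that passed the test of the difference between sets, with Lcn2 and Saa3 far above the line of equal response.

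The deposited tables also count all reads within a gene's limits, so the reads outside exons, which include introns of unspliced RNA, were obtained as the difference of both counts. They were 4.49% to 4.94% of gene reads in siControl and 4.58%, 5.02% and 6.42% in siControl + IL-17, highest in the RB160 library with IL-17; the part of this share in the results was not tested. Tested alone, 19 of 12463 genes rose (0.152%) and 9 fell (0.0722%). Of the 35 genes that rose in exon reads 29 could be tested, 28 of them with the same sign (96.6%, against 61.8% of all genes) and 8 called. Of the 23 that fell 20 could be tested, 20 with the same sign and 1 called, Eya4. Both kinds of count come from the libraries that gave the calls, so these counts describe the called genes and do not support them. Il6 had 32, 16 and 5 reads outside exons in siControl and 91, 68 and 187 with IL-17, a log2 fold change of 2.31 ± 0.35 close to the 2.41 in exons (edgeR adjusted p = 0.00295). Selp went from 28, 24 and 4 to 92, 88 and 70 reads (1.998 ± 0.29, edgeR adjusted p = 0.00182), Slc7a2 from 208, 133 and 297 to 378, 342 and 884 (0.97 ± 0.15, edgeR adjusted p = 0.00345) and Ccl2 from 244, 317 and 175 to 655, 657 and 634 (1.13 ± 0.18, edgeR adjusted p = 0.00345). Cxcl1, Slc11a2, Bcl3 and Tgfbr3 were called as well, at 1.58, 0.73, 0.85 and 0.82. Ccl7, which missed the threshold in exons, passed here at 0.97 ± 0.18 (edgeR adjusted p = 0.0154), but not without siControl replicate 1, siControl replicate 3 or siControl_IL17 replicate 2. DESeq2 did not call Ccl7, Il6, Ccl2 or Tgfbr3 outside exons. Without siControl replicate 3 only 2 genes were called outside exons, without siControl_IL17 replicate 3 10, without siControl replicate 2 14, without siControl_IL17 replicate 2 16 and without siIMP2_IL17 replicate 3 52, and without the title set as a term 0. Besides Eya4, the complement protease gene Masp1 and the zinc finger gene Cxxc5 fell outside exons by 0.56 and 0.57 on the log2 scale.

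For a few genes the rise in exons was larger than the rise outside them. One model over both kinds of count, with each library as a block, gave the difference of the 2 responses for 11508 genes. It was positive past the threshold in 6 (0.0521%) and negative in 0 (0%), with 339 and 361 at an unadjusted p below 0.05; no other tool was run. Of the 6, Rpl10-ps3 is a pseudogene, whose reads cannot be told from those of its parent gene, and it was named after its value was seen. The others were Nfkbiz, Cxcl1, Zc3h12a, Ier3 and Fgfr1op, all genes that rose in exons. Nfkbiz had 363, 302 and 245 reads outside exons in siControl and 299, 402 and 492 with IL-17, overlapping groups with a log2 fold change of 0.094 ± 0.14, beside 2.05 in exons. The difference was 1.97 ± 0.11 (edgeR adjusted p = 6.36e-19). Cxcl1 went from 155, 129 and 208 reads outside exons to 379, 363 and 1373, which do not overlap, and its exon response was larger by 1.14 ± 0.12 (edgeR adjusted p = 5.49e-09). Zc3h12a went from 96, 77 and 53 to 134, 127 and 184 reads, with a difference of 1.30 ± 0.15 (edgeR adjusted p = 1.42e-07). Ier3 had 140, 91 and 60 reads before and 108, 107 and 84 after (0.90 ± 0.14, edgeR adjusted p = 0.000405), and Fgfr1op 266, 203 and 305 before and 237, 253 and 538 after (0.57 ± 0.12, edgeR adjusted p = 0.0317). For Il6 the same difference was 0.13 ± 0.24 and did not pass (edgeR adjusted p = 0.97). Use of strand is not given in the sources used here, so reads of overlapping genes on the other strand may be part of both counts. The call of Ier3 ended without siControl replicate 1, and that of Fgfr1op without siControl replicate 1, siControl replicate 3 or siControl_IL17 replicate 3 (highest adjusted p 0.0721 and 0.899), while those of Nfkbiz, Cxcl1 and Zc3h12a held in every alternative run.

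**Figure D5:**
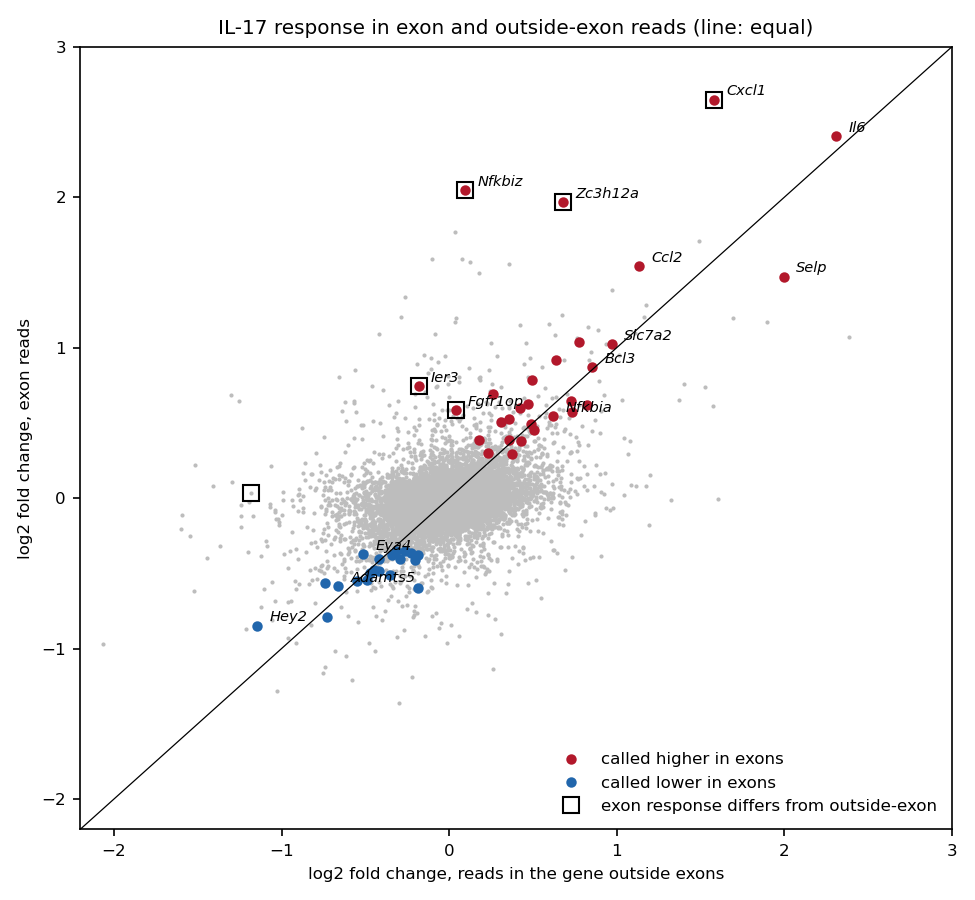
Log2 fold change of exon reads against that of reads outside exons, 1 point per gene with both; 3 genes lie outside the axes. Il6, Slc7a2 and Bcl3 lie near the line of equal change, while Nfkbiz, Cxcl1, Zc3h12a, Ier3 and Fgfr1op (squares, with the unlabelled pseudogene at left) lie above it.

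In cells with the IMP2 siRNA, which share no library with this comparison but enter the same fit, all 58 genes had the same sign of response, against 69.4% of all genes. Of the 35 that rose 25 were called there too (0.343% of all genes were called higher), and of the 23 that fell 11 (0.168% lower). The medians were 0.62 and -0.41. For Cxcl1 the log2 fold change was 3.15 ± 0.24 and for Nfkbiz 2.30 ± 0.12. The gap in level between the siRNAs varied by gene. Mean Cxcl1 was 4.74 CPM without and 42.0 CPM with IL-17 under the IMP2 siRNA, beside 32.3 and 203 CPM under the control siRNA. In the same order, Zc3h12a had 14.1 and 54.0 beside 12.4 and 46.0 CPM. Nfkbia had 53.5 and 79.3 beside 62.8 and 92.5 CPM. The difference between both responses was called for 0 genes by edgeR (0%), with 61 higher and 91 lower with the control siRNA at an unadjusted p below 0.05. A difference in response between the siRNAs was therefore not shown for any of the 58, and differences in level were not tested here.

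In the authors' deposited table of IL-17 against a control named Mock, taken here to be siControl, 8 of 20274 genes have an FDR below 0.05 (0.0395%). Of these 7 are among the 58, Cxcl1, Nfkbiz, Nos2, Zc3h12a, Ccl2, Il6 and Cxcl5, and the eighth is Ccl7. The log2 fold changes in the authors' deposited table are 2.66 for Cxcl1, 2.04 for Nfkbiz, 5.04 for Nos2 and 1.38 for Ccl7. Which test and model gave these values is not given in the sources used here. Mock was taken to be siControl because its fold changes match those found here. The match therefore describes that table and does not support the calls.

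A set of 6 genes kept their call in each of the 12 fits that left out 1 library: Cxcl1, Nfkbiz, Nfkbia, Zc3h12a, Slc7a2 and Adamts5. Without siControl_IL17 replicate 3 only 9 of the 58 stayed called, and without siControl replicate 3 only 10, while 15 to 44 did so without a NA library of these 2 groups, 30 to 41 without siIMP2 replicate 1, 2 or 3 or siIMP2_IL17 replicate 1 or 2, and 58 without siIMP2_IL17 replicate 3. Nos2 lost its call without siControl_IL17 replicate 3, Il6 without that library, siControl_IL17 replicate 1 or siControl replicate 2, Cxcl5 in 5 of the 12 fits and Ccl2 in 9. In the NA libraries alone 40 genes were called, of which 23 are among the 58. The robust fit ended the calls of Il6, Ccl2, Selp, Slc7a11, Prss23 and Slc11a2. DESeq2 and limma-voom each called 57 of the 58, and 56 were called by both; Ctnnd2 was not called by limma-voom, and DESeq2 gave Cxcl5 no adjusted p. All 58 kept their direction in every alternative that measured them.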

How the data were processed

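RNA-seq was done on total RNA of 12 libraries in 4 groups of 3, and the 6 with the control siRNA were compared. Per the file headers, the authors deposited for each library whole-number counts of exon reads and of all reads within a gene, with TPM values. The series table of the authors' comparisons gives log2 fold changes, p-values and FDR values. The submitters' processing notes name mm10 as the build; aligner, counter and strand setting were not given in the sources used here.

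Models were fitted in edgeR 4.0.16 (R 4.3.3): TMM factors, filterByExpr (minimum count 10, minimum total 15), a mean for each of the 4 groups and the title set as a term over all 12 libraries, the quasi-likelihood test, and Benjamini-Hochberg adjustment with a threshold of 0.05. Printed CPM are exon reads over the TMM-scaled library total. Reads outside exons were gene minus exon reads. The standard error is the log2 fold change divided by the square root of F. The edgeR model fits were tested on simulated data, and the other steps were not. Totals of 33841054 to 44433699 exon reads set the counting precision, and floors of 3 reads cover counting error only.

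The members and gene lists were chosen with earlier results of these data known. Named were all called genes, genes of a panel of 30, up to 3 members of smallest p of each of 32 lists, and, for the other models, up to 6 called genes of smallest p per direction; others were named after their values were seen. Of the listed symbols 6 were not found. Every per-sample count column was used (0 left over). Replicate numbers follow accession order and were not used to pair libraries; the RB160 set, replicate 3 of each group, is in the fits as the title-set term. Alternatives were RLE and upper-quartile factors, other filters, DESeq2 1.42.0, limma-voom (limma 3.58.1), no title-set term, NA libraries alone, the 6 libraries alone, a robust fit, a fold threshold, uniquely mapped reads and each library left out.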

Additional observations from a re-analysis of the deposited data

Results flagged for a closer look

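For 9 genes the difference in IL-17 response between the title sets passed a test, in which RB160 has 1 library per group and its spread is taken from the NA libraries. As RB160 minus NA on the log2 scale and from the edgeR fit across all genes, the values were 6.52 ± 0.59 (SE; adjusted p = 0.00258) for Lcn2, 1.64 ± 0.16 (adjusted p = 0.00317) for Selp, 3.31 ± 0.39 (adjusted p = 0.0107) for Serpina3n, 8.60 ± 1.02 (adjusted p = 0.0107) for Saa3, 0.91 ± 0.12 (adjusted p = 0.0192) for Slc39a14, 0.97 ± 0.13 (adjusted p = 0.0263) for Has2, 0.73 ± 0.10 (adjusted p = 0.0263) for Ctps, 0.74 ± 0.11 (adjusted p = 0.0302) for Thbd and 1.18 ± 0.17 (adjusted p = 0.0327) for C3. With only the 6 libraries compared, Slc39a14, Has2, Ctps, Thbd and C3 did not pass. Saa3 did not pass with DESeq2, and both Saa3 and Serpina3n lost their call without siControl_IL17 replicate 2. Only Lcn2 and Selp kept theirs in all 16 alternatives. The Saa3 value depends on the prior count, since the RB160 control library held 0 of its reads.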

How the results depend on the processing

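All 58 called genes kept their direction in every alternative that measured them, but their number varied. Without a filter 221 genes passed, with DESeq2 197, with only the 6 libraries compared 100, with a log2 fold change of at least 1 required 12, and without the title set as a term 1. Leaving out 1 library gave 9 to 98. RLE or upper-quartile factors, a filter on CPM, limma-voom, the NA libraries alone, a robust fit and uniquely mapped reads moved the count by less than 1.5 times, although only 23 of the 58 were among the 40 called in the NA libraries alone and 52 among the 56 of the robust fit. For the 9 genes whose response differed between title sets, no filter gave 145, DESeq2 18, the 6 libraries alone 7 (4 of them shared) and leaving out 1 library 2 to 13; without siControl replicate 3 or siControl_IL17 replicate 3 no value could be had. For the 28 genes called outside exons, no filter gave 119, the 6 libraries alone 50, DESeq2 17, no title-set term 0 and leaving out 1 library 2 to 52. For the 6 genes with unequal change in exons and outside them, no filter gave 19 and leaving out 1 library 5 to 9. The cause was not tested, except that a filter changes the number of genes tested and a left-out library the number of samples. Near 0, leaving out 1 library put Igf2bp2 between -0.068 (without siControl replicate 3) and 0.151, also below 0 at -0.021 without siControl_IL17 replicate 1, and Il17ra between -0.009 (without siControl_IL17 replicate 3) and 0.081, also at -0.003 without siControl_IL17 replicate 1 and to -0.004 in the NA libraries alone. No paired analysis was run. The labels give no replicate numbers, and those used here follow accession order. The title numbers of the NA set pass through the groups in the same order, so a block could have been fitted. Whether libraries of neighbouring title numbers share a culture is not given in the labels. The title set is already a term, and the part of a difference between replicates 1 and 2 in the spread was not tested. Principal component 3, with 5.74% of the variance over the 6 libraries, put replicate 1 at 20.88 and 8.49 and replicate 2 at -14.36 and -15.2 in siControl and siControl_IL17. Depth limits genes of few reads, such as Cxcl5, Nos2 and the untested Cxcl2.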
